A study of Mus musculus with 10 samples.

Results

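Open chromatin at gene ends is usually a short stretch of accessible DNA over the start of a gene, and the narrow regions described here are the short, inconsistently called ones in liver tumours driven by MYC. They are 4961 regions of the 12266 in the union of 10 ATAC-seq peak lists (40.4%). Each was called in 2 to 9 of the 10 lists, was under 800 bp long in the union and lay within 1 kb of an end of exactly 1 protein-coding gene. The members were thus chosen by measured values, the calls in the lists and the length of the merged region, together with the gene table. The genotype of the libraries did not enter the rule.

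The libraries came from frozen liver tumours of FVB mice, and ATAC-seq marks open DNA with a transposase that cuts and tags it. Homo tumours (n = 3, about 100 days) were LAP-tTA, TRE-MYC, Arid1a fl/fl with Alb-Cre, so both Arid1a alleles were floxed and exposed to Cre. Het tumours (n = 3, about 70 days) had the same transgenes and Cre with Arid1a fl/+. WT tumours (n = 4, about 55 days) had the same transgenes and Arid1a fl/fl but no Cre. All groups share the MYC transgene, which is switched on in liver cells when doxycycline is withdrawn, and at least 1 floxed allele, and all tumours were taken at death. Alb-Cre acts in cells of the hepatocyte lineage, so other cells of a tumour keep Arid1a. Age rises with the number of exposed alleles and Cre is absent from WT, so genotype, age and Cre cannot be told apart. The labels do not say that the replicates are separate mice, so the p-values reflect library-to-library spread only. In bulk tumour, fewer cells of a type and less accessibility per cell cannot be told apart.

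ARID1A is a DNA-binding subunit of the BAF form of SWI/SNF, an ATP-driven machine that slides and evicts nucleosomes. A gene start is accessible where a nucleosome-free gap holds transcription factors and RNA polymerase II, and in mammals most such starts lie in CpG islands. MYC binds with its partner MAX to E-boxes near many of these starts. The comparisons below ask which of these starts were called open with and without Arid1a.

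The lists behind the regions differ strongly in length and depth. Depth, recovered from the lists as background tags per 200 bp, was 0.464 to 1.608 in Homo, 0.655 to 0.738 in Het and 0.985 to 1.745 in WT libraries. Homo 1, Homo 2 and Het 3 stand apart with 3863, 1748 and 2583 distinct regions, against 4666 to 9587 in the other libraries. They stayed low after every list had been thinned to the depth of Homo 2, with 2672, 1748 and 2061 regions against 4230 to 5812. Group differences and call patterns are given below with and without these 3 libraries, the second as a choice made after seeing the data and, with 1 Homo library left, without a test.

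Sequences are shown first for 6 starts that carry the main patterns below. Each is the RefSeq window (GRCm38.p6) of 250 bases before to 50 bases after the annotated start, 5′ to 3′ on the gene's strand, with matches to the searched motifs in capitals on either strand. AW209491 (chr13:14630008-14630307, plus strand) is the start called in every Homo but in no Het or WT library. Its capitals mark a GC box, the Sp/KLF site GGGCGG, here on the other strand. Cklf (chr8:104250611-104250910, plus strand) leads the starts called in all WT and no Homo or Het library, and its capitals mark a GC box at the start itself. Prelid3b (chr2:174472892-174473191, minus strand) was called in all WT and no Het library and holds 3 GC boxes and an ETS core (CCGGAAG). Fut8 (chr12:77238489-77238788, plus strand) was called in all Het and no Homo library. Its capitals mark a GC box and 2 overlapping matches to the NRF1 motif GCGCATGC. Rbm39 (chr2:156180189-156180488, minus strand) and Max (chr12:76962199-76962498, minus strand) rank highest among the starts called in 9 lists. Rbm39 holds 2 CCAAT boxes and 4 matches, overlapping in part, to the ZBTB33 motif TCTCGCGA, and Max holds an E-box, CACGTG, that begins 3 bases before its start.
AW209491: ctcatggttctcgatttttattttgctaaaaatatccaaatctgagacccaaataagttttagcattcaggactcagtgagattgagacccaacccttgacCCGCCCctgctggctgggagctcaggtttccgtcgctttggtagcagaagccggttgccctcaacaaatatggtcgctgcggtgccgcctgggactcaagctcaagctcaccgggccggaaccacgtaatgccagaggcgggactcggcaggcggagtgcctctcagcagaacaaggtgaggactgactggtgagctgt
Cklf: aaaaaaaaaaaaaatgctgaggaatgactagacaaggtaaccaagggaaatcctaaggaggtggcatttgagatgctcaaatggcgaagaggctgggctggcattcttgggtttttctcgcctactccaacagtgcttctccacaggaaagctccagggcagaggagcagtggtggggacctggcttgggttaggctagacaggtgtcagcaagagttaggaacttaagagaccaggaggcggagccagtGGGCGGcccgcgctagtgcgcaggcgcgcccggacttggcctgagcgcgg
Prelid3b: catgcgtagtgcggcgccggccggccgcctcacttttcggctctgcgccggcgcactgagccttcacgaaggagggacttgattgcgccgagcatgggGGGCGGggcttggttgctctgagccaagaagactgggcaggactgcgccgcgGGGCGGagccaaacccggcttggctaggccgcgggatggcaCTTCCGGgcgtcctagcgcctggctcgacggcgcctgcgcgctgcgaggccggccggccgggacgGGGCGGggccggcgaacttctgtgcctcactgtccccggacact
Fut8: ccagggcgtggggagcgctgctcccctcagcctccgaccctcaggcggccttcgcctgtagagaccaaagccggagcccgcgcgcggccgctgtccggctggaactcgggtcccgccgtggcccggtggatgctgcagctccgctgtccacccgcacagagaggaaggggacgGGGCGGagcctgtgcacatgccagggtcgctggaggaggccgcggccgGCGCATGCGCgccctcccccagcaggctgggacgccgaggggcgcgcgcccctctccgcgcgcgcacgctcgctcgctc
Rbm39: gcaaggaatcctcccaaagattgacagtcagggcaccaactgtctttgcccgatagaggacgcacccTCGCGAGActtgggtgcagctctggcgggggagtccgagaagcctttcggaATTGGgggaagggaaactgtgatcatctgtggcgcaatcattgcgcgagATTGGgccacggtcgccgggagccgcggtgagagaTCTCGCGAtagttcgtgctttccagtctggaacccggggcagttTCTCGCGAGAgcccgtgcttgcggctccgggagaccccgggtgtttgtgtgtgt
Max: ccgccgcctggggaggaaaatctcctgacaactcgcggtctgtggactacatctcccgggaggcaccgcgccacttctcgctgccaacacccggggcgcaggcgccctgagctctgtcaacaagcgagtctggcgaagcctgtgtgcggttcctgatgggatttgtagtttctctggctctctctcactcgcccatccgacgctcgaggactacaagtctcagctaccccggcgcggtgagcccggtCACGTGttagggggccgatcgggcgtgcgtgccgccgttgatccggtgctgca

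The narrow regions sat on gene starts. They lay at 4859 of 21631 protein-coding genes (22.5%), 102 of which had 2 members, and they were 203 to 799 bp long with a median of 517 bp. A gene end fell inside 4140 of them (83.5%). The strand of the gene was known for 4026 (81.2%), and 3944 of these (98%) were at the start, 50 at the far end and 32 at both, as in short genes. No strand was used for the other 935. The rule did not ask for the start, since either end of a gene qualified. X held 99 members, and the sex of the mice is not given in the labels.

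At the length limit, Cdk8, a kinase of the Mediator module, was the longest member with 799 bp and was called in 9 lists. Snx9, a sorting nexin, and Arrdc1, an arrestin-related protein, had 798 bp each, in 9 and 7 lists. Just outside the limit were Ppp6r3, Slc25a1 and Srsf1 with 800 bp each, in 7, 4 and 7 lists. At the limits on lists, 558 members were called in 2 lists and 408 in 9, while 317 regions at an end of 1 gene were called in all 10.

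Within these regions the summit, the point of highest tag pileup, lay close to the annotated start. The median summit was 24 bp upstream of the start in Homo 2 and 37 bp upstream in Homo 3, 31 to 35 bp upstream in the Het libraries and 26 to 39 bp upstream in the WT libraries. Homo 1 stood apart with a median 2.5 bp downstream. In Homo 1, 49.0% of 1234 placed summits lay upstream, against 56.7% and 68.8% in the other Homo libraries, 58.0% to 66.4% in Het and 60.3% to 71.8% in WT libraries. Summits within 100 bp of the start made up 51.9%, 54.9% and 64.7% in Homo 1, Homo 2 and Homo 3, 51.6% to 61.8% in Het and 57.6% to 66.3% in WT libraries. The libraries with the fewest regions (Homo 1, Homo 2 and Het 3) thus had the smallest shares, and the part of depth in this was not tested.

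**Figure D1:**
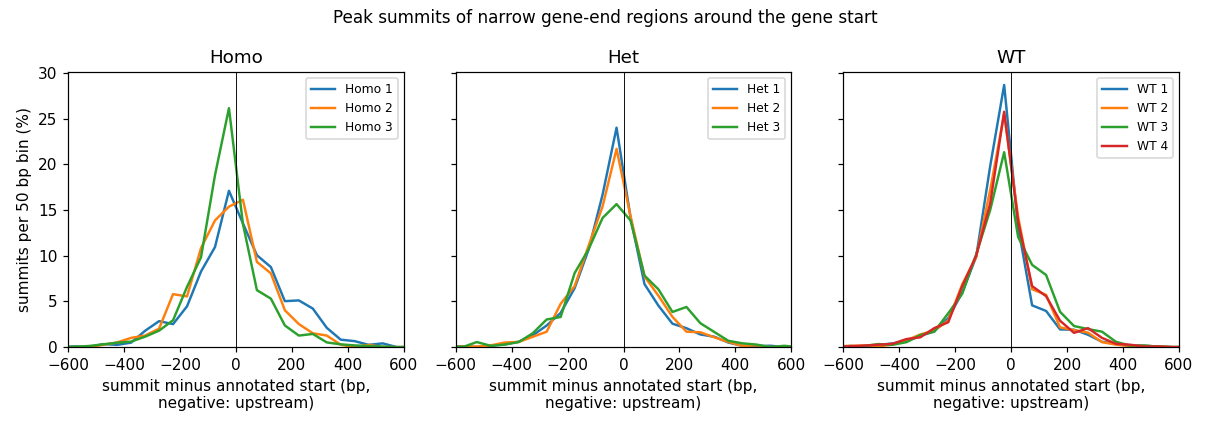
Distance of the peak summit from the annotated gene start (x, bp, negative is upstream) against the share of summits per bin of 50 bp (y, percent) for each Homo, Het and WT library. Summits peak just upstream of the start in most libraries, and the Homo 1 curve is lower and reaches further downstream, with 49.0% of its summits upstream.

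The promoter sequence of these genes, which the rule did not use, was rich in CpG. Windows that overlap a member (3700) had a median GC content of 62.3%, against 53% over all 32619 windows on the autosomes and X and 49.7% over 23309 windows of genes without a region at an end. A CpG ratio (observed over expected) of at least 0.6 was found in 86.7% of the member windows and 36.0% of all windows. Broad regions, which meet the same rule but reach 800 bp or more, were richer still, with 68.3% GC and 96.5% of 574 windows over that ratio.

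Motifs were searched as exact letters on both strands, and a match is only a description of the letters. The GC box occurred in 74.9% of member windows and 35.9% of all windows. The ETS core occurred in 21.5% and 8.92%, the NRF1 motif in 7.81% and 2.72%, and the E-box in 12.2% and 7.20%. CCAAT occurred in 42.5% and 37.6%, a smaller gap. The CRE of CREB and ATF factors (TGACGTCA) occurred in 4.05% and 1.80%, and the C/EBP motif (TTGCGCAA) in 0.378% and 0.184%. The YY1 motif (AAGATGGC) occurred in 5.35% and 2.76%, the ZBTB33 motif in 2.59% and 1.002%, and the ZNF143 motif (CTACAATT) in 1.27% and 0.754%. The remaining motifs were rarer in member windows. The TATA box (TATAAA) occurred in 5.14% of member windows and 13.7% of all windows, AP-1 (TGANTCA) in 3.49% and 7.85%, the liver motifs FOXA (TGTTTAC) in 2.35% and 3.67% and HNF4 (CAAAGTCCA) in 0.270% and 0.478%. Short motifs rich in C and G follow the GC content of a window, and this was not separated from the motif itself.

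Members called in more lists were longer, ranked higher and had fewer TATA boxes. The median length was 337 bp for members in 2 lists and 657 bp for members in 9. The median rank, as a percentile by −log10 p within a list with 100 the strongest, was 21.1 in 2 lists and 66.5 in 9. The union grows longer as more lists call a region, and a stronger peak passes the calling threshold in more lists. The courses of length and rank are thus partly set in advance and are given as a description. Windows over the CpG ratio of 0.6 made up 73.5% in 2 lists and 92.7% in 9, and the TATA box occurred in 7.0% and 2.12%. The NRF1 motif occurred in 2.92% of windows in 2 lists, 10.3% in 8 and 7.88% in 9. E-boxes showed no such course, with 9.91% in 2 lists, 13.9% in 5 and 10% in 9.

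**Figure D2:**
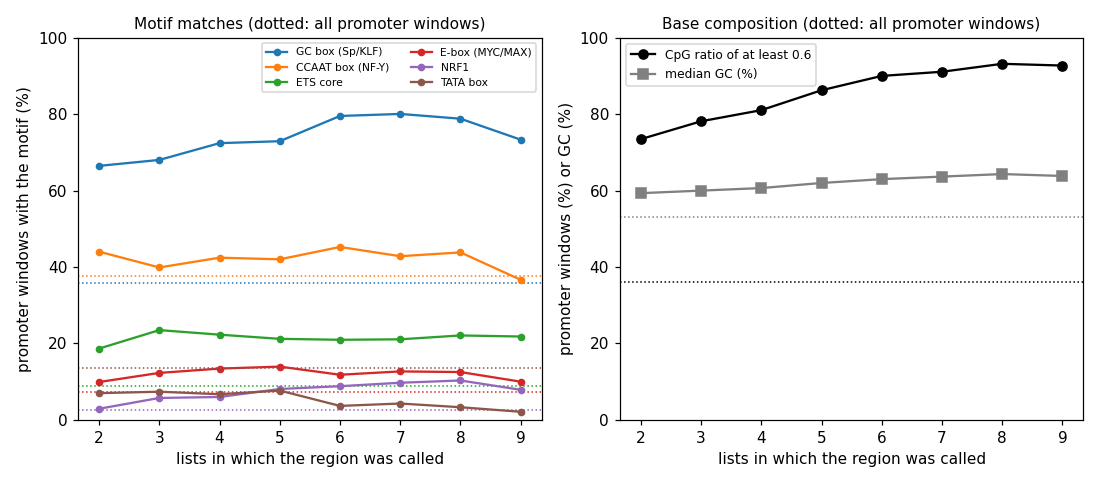
Share of promoter windows with each motif (left, percent) and with a CpG ratio of at least 0.6, beside median GC content (right, percent), against the number of lists in which the member was called (x). Dotted lines give all promoter windows in the same colour. The GC box lies above its dotted line and the TATA box below it at every number of lists, with 74.9% and 5.14% over all members.

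The number of narrow regions called was compared between genotypes to ask whether fewer gene starts were called open with Arid1a lost. Homo 1, Homo 2 and Homo 3 called 1606, 534 and 4404 of the 4961. Het 1, Het 2 and Het 3 called 2642, 2034 and 936. WT 1 to WT 4 called 4279, 3874, 3147 and 4025. All Het libraries were below all WT libraries, while Homo 3 was above every other library and the other 2 Homo libraries were below every WT library. The same held for all distinct regions of the lists. These numbered 3863, 1748 and 9587 in Homo 1 to Homo 3 and 5796, 4666 and 2583 in Het 1 to Het 3. In WT 1 to WT 4 they numbered 9526, 8355, 6731 and 8490. The separation is thus one of whole lists and is not particular to narrow regions. The mean was 2181 ± 1998 in Homo (SD, n = 3), 1871 ± 865 in Het (n = 3) and 3831 ± 486 in WT (n = 4). Het against WT differed by -1961 regions (exact permutation test, two-sided, p = 0.0286, the smallest that 4 against 3 libraries allow, adjusted p = 0.3 over 21 tests by Benjamini-Hochberg). The calls counted here also chose the members, since 2333 union regions in 1 list and 647 in all 10 lists were dropped. The p-values of member counts, their trend and their shares of the lists are thus given as a description. Homo against WT differed by -1650 (exact p = 0.229, adjusted 0.6), with -826 when Homo 2 was left out and -2761 when Homo 3 was. Homo against Het differed by 311 (exact p = 0.9, where 3 against 3 cannot go below 0.1). None of the 21 tests over 7 measures and 3 contrasts passed an adjusted threshold of 0.05, and 2 had an unadjusted p below it. Over 0, 1 and 2 floxed alleles with Cre the slope was -874 regions per allele (exact permutation over 4200 arrangements, p = 0.107). Without Homo 3 it was -1450 (exact p = 0.00397), but then only Homo 1 and Homo 2 stand for 2 alleles. Both are among the short lists set apart above, which stayed low at equal depth. The call of the trend thus turns on which Homo libraries enter, and no effect of allele number can be read from it.

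Depth moved with these counts. Across the 10 libraries, depth and members called had a Pearson r of 0.880 (permutation p = 0.00115) and a Spearman rho of 0.891 (permutation p = 0.0011), the only relation of this kind computed. Without the farthest libraries in depth, WT 1 and Homo 3, r was 0.843. After thinning to equal depth the members called were 1070, 534 and 2711 in Homo 1 to Homo 3, 2363, 1827 and 709 in Het 1 to Het 3, and 2201, 2645, 2176 and 2272 in WT 1 to WT 4. Het 1 was then above 3 of the WT libraries and Homo 3 above all of them. The difference was -691 for Het against WT (exact p = 0.143) and -885 for Homo against WT (exact p = 0.229). Without Homo 1, Homo 2 and Het 3, a choice made after seeing the data, the deposited lists gave 573 more members in Homo 3 than in WT on average and a difference of -1493 for Het 1 and Het 2 against WT.

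**Figure D3:**
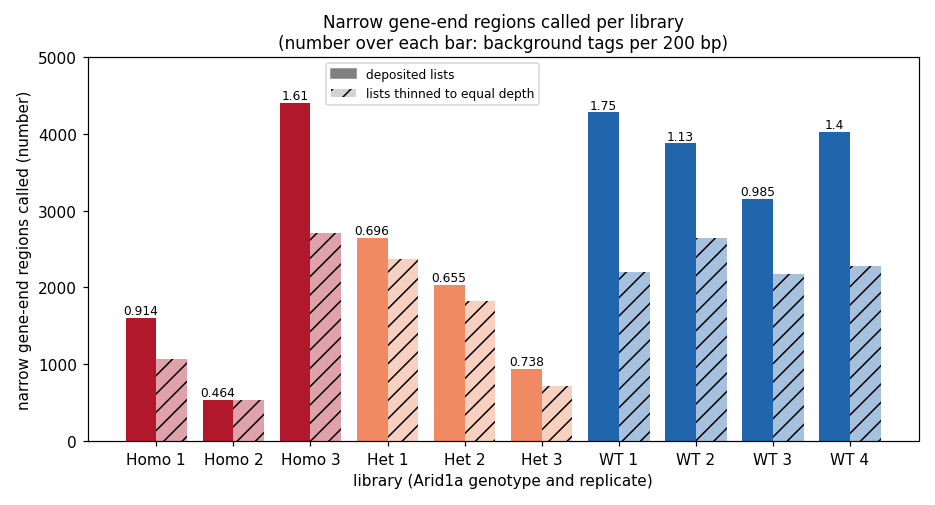
Narrow gene-end regions called (y, number) in each Homo, Het and WT library (x) in the deposited lists (solid bars) and after thinning to equal depth (hatched bars), with the depth of the deposited list over its bar. Homo 3 has the most calls (4404) and Homo 2 the fewest (534), and the WT bars fall to 2176 to 2645 at equal depth.

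Narrow regions were called less often than broad ones at the same kind of gene end in every library. The union grows longer as more lists call a region, so the rule itself sets part of this gap. Homo 1, Homo 2 and Homo 3 called 32.4%, 10.8% and 88.8% of the narrow and 57.2%, 16.9% and 98.2% of the 652 broad regions. Het 1, Het 2 and Het 3 called 53.3%, 41.0% and 18.9% of the narrow and 82.8%, 72.2% and 44.3% of the broad ones. WT libraries called 63.4% to 86.3% of the narrow and 92.9% to 99.1% of the broad ones. The gap, narrow minus broad, averaged -13.4 ± 10 percentage points in Homo, -28.8 ± 2.98 in Het and -19.0 ± 7.71 in WT. This gap was tested as 1 of the 7 measures and counts among the 21 adjusted tests. Since the calls set the union length by which the classes were split, the differences between groups are given as a description. They were -9.78 points for Het against WT, 5.53 for Homo against WT and 15.3 for Homo against Het. Homo against WT was 11.2 without Homo 1, 1.87 without Homo 2, 3.50 without Homo 3 and 2.02 without WT 3. Without Homo 1, Homo 2 and Het 3 it was 9.59, and Het against WT was -11.4. As a log2 odds ratio, chosen after seeing the data, Het was at -1.92 ± 0.15 and WT at -3.16 ± 1.01, so the direction of Het against WT turns with the scale (difference 1.24).

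Called members were also narrower in Het. The median width of the peak was 292, 232 and 404 bp in Homo 1 to Homo 3, 296, 277 and 257.5 bp in Het 1 to Het 3, and 381, 351, 329 and 376 bp in WT 1 to WT 4, so Het and WT did not overlap. Het against WT differed by -82.4 bp (exact p = 0.0286, adjusted 0.3) and Homo against WT by -49.9 bp (exact p = 0.343, adjusted 0.72). The rule keeps only unions under 800 bp, which are built from these same peaks, so it bounds the widths from above. The width differences and their p-values are thus given as a description. Homo against WT was -11.2 bp without Homo 2 and -97.2 bp without Homo 3. Without Homo 1, Homo 2 and Het 3 it turned to 44.8 bp, while Het against WT was -72.8 bp. Depth, given above, was lower in every Het than in every WT library and the thinned lists keep the deposited widths, so depth and genotype cannot be told apart for this measure. The median fold, tags plus 1 at the strongest summit over local background plus 1, was 6.09, 6.10 and 7.11 in Homo, 6.77, 6.45 and 5.88 in Het and 6.69, 6.79, 6.30 and 6.52 in WT libraries, and the groups overlapped. Without Homo 1, Homo 2 and Het 3 the median fold differed by 0.539 for Homo against WT and 0.0376 for Het against WT, both in the other direction than with all libraries. Members made up 41.6%, 30.5% and 45.9% of the Homo lists, 45.6%, 43.6% and 36.2% of the Het lists and 44.9% to 47.4% of the WT lists. Those shares differed by -7.01 points for Homo against WT and -4.56 for Het against WT (exact p = 0.0571 and adjusted 0.3 for each). With 1 library left out at a time they ranged over -10.3 to -2.61 points for Homo against WT, the smallest without Homo 2, and -6.45 to -1.77 for Het against WT, the smallest without Het 3. Without Homo 1, Homo 2 and Het 3 they were -0.425 for Homo against WT and -1.77 for Het against WT. Most of the difference in shares thus rests on these libraries.

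Of the members called in all 4 WT libraries (2441), Homo 1, Homo 2 and Homo 3 also called 43.4%, 14.9% and 98.2%, and Het 1, Het 2 and Het 3 called 74.4%, 60.8% and 27.6%. Of 573 broad regions called in all 4 WT libraries, Homo 1, Homo 2 and Homo 3 called 57.6%, 16.9% and 99.0%. Het 1, Het 2 and Het 3 called 86.7%, 76.1% and 45.9% of them, so the order of libraries was the same. Each set asks for a call in every WT library, so the other libraries can only fall short. The narrow members also called ranked higher in the WT lists than those missed in each of the 6 libraries. In Het 1 the median WT percentile was 62.8 for the called and 44.5 for the missed, and in Homo 1 it was 62.8 and 54.0. Among WT ranks of 80 to 90, Het 1 called 95% and Homo 2 17.9%, and among ranks of 20 to 30 they called 49.4% and 10.8%. Even at WT ranks of 90 to 100, Homo 2 called 19.8% and Het 3 53.1%.

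**Figure D4:**
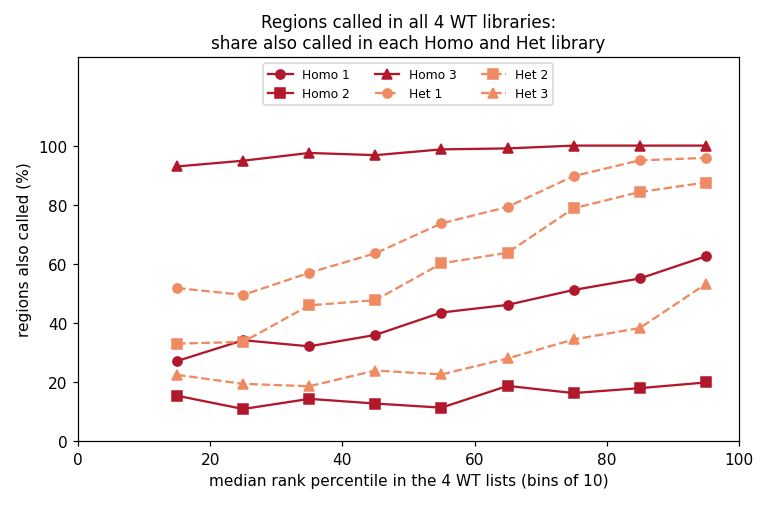
Members called in all 4 WT libraries, by their median rank percentile in the WT lists (x, bins of 10, bins under 20 members left out), against the share also called in each Homo and Het library (y, percent). Homo 3 calls nearly all of them (98.2%), Het 1 and Het 2 climb with rank, and Homo 2 stays low at every rank (14.9% over all bins).

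Which libraries missed a region followed the same order. The commonest set of calls, 354 members (7.14%), was every library but Homo 1, Homo 2 and Het 3. Of the 408 members in 9 lists, 236 were missing from Homo 2, 97 from Het 3 and 42 from Homo 1, and 33 from the other libraries together. Among the strongest of them, Rbm39, a splicing factor, had a fold of 7.14 and 12.3 in Homo 1 and Homo 3, 7.83 to 8.22 in Het and 9.68 to 10.6 in WT libraries and no call in Homo 2. Max, the partner of MYC, had a fold of 8.41 and 11 in Homo 1 and Homo 3, 11.1, 9.54 and 5.10 in Het 1 to Het 3 and 6.12 to 10.1 in WT libraries, also without Homo 2. Its summit held 42 tags in Homo 3, 25 in Het 1 and 39 in WT 1, and the groups overlapped. Clpb, a mitochondrial protein disaggregase, and Rsbn1 followed, both missing from Homo 2 too. At the low end of the 9-list members, Zfp748, a zinc finger gene, had folds of 6.79 and 5.37 in Homo 1 and Homo 3, 5.17 to 6.04 in Het and 5.35 to 5.6 in WT libraries, and Ppa2, a mitochondrial pyrophosphatase, and Cnksr3, a signalling scaffold, were as weak.

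The study's question, which starts open in WT close without Arid1a, was asked of single regions as calls in every library of a group and none of another. In all WT and no Homo library were 20 members (0.403%), near the background of 0.377% over all 9286 regions in 2 to 9 lists. The opposite set, every Homo and no WT library, held 1 member, AW209491, against a background of 0.0215%. In all WT and no Het library were 307 members (6.19%), near the background of 5.36%, and 18 broad regions (2.76%). In all Het and no WT library was none, against 0.0108%. In all Homo and no Het library were 16 (0.323%), against 0.345%, and in all Het and no Homo library 5 (0.101%), against 0.0862%. In all WT and no Homo or Het library were 11 (0.222%), against 0.172%, and in all Homo and Het and no WT library none, against 0%. The background of 9286 regions includes the 4961 members themselves, which draws each share and its background together. Each share is near that background, so these counts are no result about narrow regions in particular.

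These counts turned on a few libraries. The WT-only count against Homo was 1198 when Homo 3 was left out, 36 when Homo 1 was, and 35, 57 and 31 when WT 2, WT 3 or WT 4 was. The WT-only count against Het was 755 without Het 1, 519 without Het 2 and 558 without WT 3. The Homo-only count against Het was 188 without Homo 2, 59 without Homo 1, 57 without Het 1 and 34 without Het 2. The Het-only count against Homo was 161 without Homo 3, 17 without Het 3, 13 without Het 2 and 8 without Het 1. The Homo-only count against WT was 15 without Homo 2, 4 without Homo 1 or Homo 3 and 2 without WT 2 or WT 4, and the Het-only count against WT was 6 without Het 3, 3 without Het 2 and 1 without Het 1, WT 1 or WT 4. The WT-only count against Homo and Het was 217 without Homo 3, 36 without WT 3, 20 without WT 2 or WT 4 and 17 without Het 1, and the reverse was 1 without WT 4. At equal depth the WT-only counts were 79 against Homo and 49 against Het, so their order turns. Without Homo 1, Homo 2 and Het 3 they were 45 against Homo 3 and 358 against Het 1 and Het 2.

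The strongest member called in WT and not in Homo or Het was Cklf, which encodes a chemokine-like factor (mm10, chromosome 8, 104250724 to 104251087, over the gene start). It had no call in any Homo or Het library and folds of 4.49, 7.41, 8.10 and 7.85 in WT 1 to WT 4, with 14, 19, 16 and 26 tags. Thinning to equal depth left 2 of its 4 WT calls. Mrpl1, a mitochondrial ribosomal protein, had WT folds of 7.97, 7.78, 6.02 and 5.93. Nans, which makes sialic acid, had WT folds of 5.97 to 7.38, and Plekha7, an adherens junction protein, 5.26 to 6.92. Rad18, the ubiquitin ligase of PCNA in DNA damage tolerance, had 5.80 to 7.98, and Capn5, a calpain protease, 5.0 to 8.21. All of these had no Homo or Het call and at equal depth 1 to 3 of 4 WT calls, so WT libraries themselves missed them at that depth. Others without a Homo call were called in some Het libraries. Ramac, the activator of the mRNA cap methyltransferase, had a fold of 7.73 in Het 2 and 5.60 to 8.65 in WT libraries. Haspin, the mitotic kinase of histone H3, had 9.18 in Het 1 and 6.45 to 7.67 in WT libraries. Dynlt1f, a dynein light chain whose gene has close copies nearby, and Klc3, a kinesin light chain, were alike, with WT folds of 4.96 to 7.62 and 5.82 to 8.38.

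The 6 members named here are those with the highest WT rank of the 307 called in all WT and no Het library, and Homo 3 called each of them. Diablo, which frees caspases by binding their inhibitors, had a fold of 11.3 in Homo 3 and of 9.12, 6.30, 9.21 and 8.44 in WT 1 to WT 4. Prelid3b, of a family of mitochondrial lipid carriers, had 8.82 in Homo 3 and 6.93 to 10 in WT libraries. Copb2, a subunit of the COPI coat of Golgi vesicles, had 8.12 in Homo 3 and 7.88 to 8.89 in WT libraries. Tuft1 had 10.5 in Homo 3 and 6.59 to 8.61 in WT libraries, and 1700030J22Rik had 11.1 and 7.38 to 9.63. At equal depth Copb2 and 1700030J22Rik kept all 4 WT calls and no Het call, Diablo and Tuft1 kept 3 and Prelid3b 1. Mid1, a microtubule-bound ubiquitin ligase whose gene crosses the pseudoautosomal boundary of X in the reference strain, was the exception in place. Its region (chromosome X, 169991191 to 169991616) was 393 bp from the far end of the gene. It held 49 tags in Homo 3 and 35 to 52 in WT libraries at folds of only 7.08 and 5.98 to 6.81, which by the definition of the fold means a high local background. Of the 234 promoter windows of the 307 members, 14.1% held an E-box and 79.9% a GC box, beside 12.2% and 74.9% of all member windows.

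**Figure D5:**
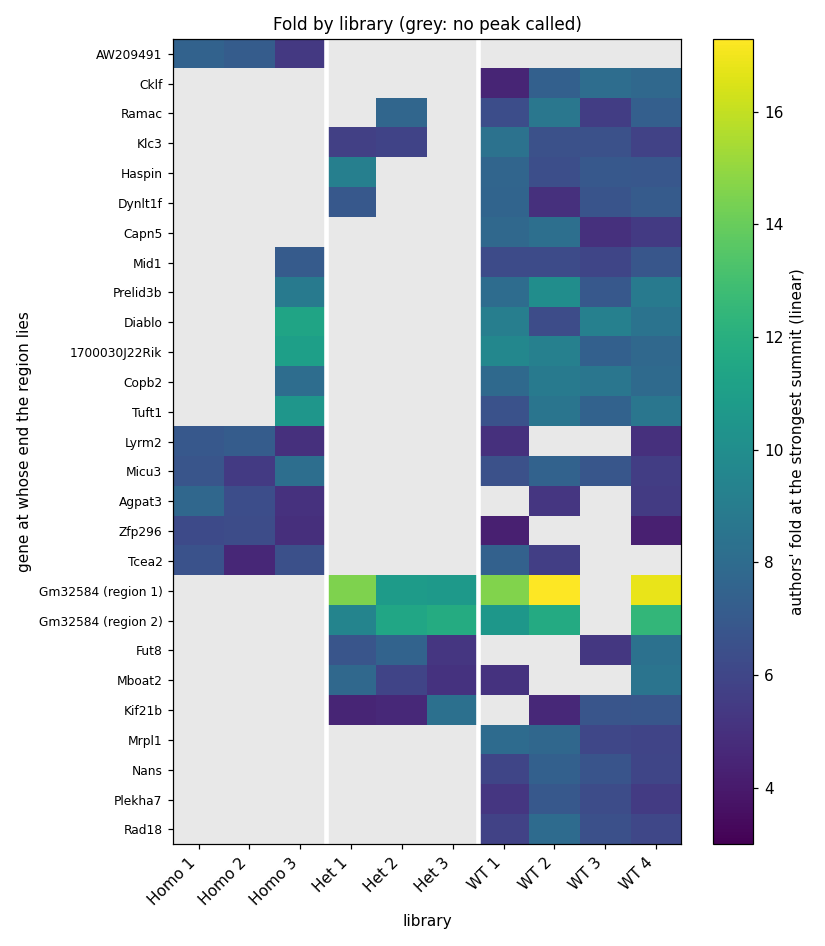
Authors' fold (linear colour scale) in each Homo, Het and WT library (columns) for the members named by the call patterns (rows); grey is no call. Het columns are grey for the 6 members from Mid1 to Tuft1 while Homo 3 is coloured, and AW209491 is coloured in the Homo columns alone.

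Few members were called in every Homo library and in no Het or no WT library. AW209491, an expressed sequence of unnamed function, had folds of 7.48, 7.14 and 5.37 in Homo 1 to Homo 3, with 15, 10 and 13 tags, and no call in Het or WT libraries. At equal depth 2 of the 3 Homo libraries called it. Lyrm2, a mitochondrial LYR-motif protein, Zfp296, a zinc finger factor, and Agpat3, an acyltransferase of phospholipid synthesis, were called in all Homo and no Het library, with folds of 4.98 to 7.14, 4.91 to 6.32 and 5.03 to 7.75 in Homo libraries. WT libraries called each of them in 2 of 4, at folds of 4.25 to 5.49. Micu3, a regulator of mitochondrial calcium uptake, and Tcea2, a transcription elongation factor, were also without a Het call. Micu3 had WT folds of 5.60 to 7.51 in all 4 WT libraries.

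In all Het and no Homo library, the predicted gene Gm32584 held 2 members, one just inside each end of the gene (chromosome 5, 36630448 to 36630826 and 36660893 to 36661270). The first had folds of 14.5, 10.8 and 10.7 in Het 1 to Het 3 and of 14.6, 17.3 and 16.8 in WT 1, WT 2 and WT 4. The second had 9.43, 11.5 and 11.8 in Het 1 to Het 3 and 10.6, 11.7 and 12.5 in WT 1, WT 2 and WT 4. Neither was called in any Homo library or in WT 3, and at equal depth all 3 Het and 3 WT libraries still called both. These folds are among the highest of any member named here, and the same 4 libraries lacked both regions. The other 3 were weaker. Fut8, which adds the core fucose to N-glycans, had folds of 6.78, 7.58 and 5.24 in Het libraries and 5.34 and 8.33 in WT 3 and WT 4. Mboat2, a membrane-bound acyltransferase, had 7.81, 5.91 and 5.10 in Het libraries and 5.10 and 8.47 in WT 1 and WT 4. Kif21b, a kinesin, had 4.50, 4.64 and 8.25 in Het libraries and 4.67, 6.76 and 6.83 in WT 2 to WT 4. Its calls in Het 1 and Het 2 had rank percentiles of only 0.233 and 0.911.

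Other strong members with gaps were chosen after their values were seen. Cwc22, a splicing factor at a locus known to vary in copy number between mouse strains, had 41, 32 and 110 tags in Homo 1 to Homo 3, 30 in Het 3 and 82 to 102 in WT libraries, with no call in Het 1 or Het 2. Its folds were only 3.19 to 4.83 in Homo, 4.6 in Het 3 and 4.61 to 5.85 in WT libraries. Arl14ep was called in WT 1, WT 2 and WT 3 alone, with folds of 9.15, 7.51 and 8.06. Zscan25, a zinc finger factor, was called in every WT library (6.50 to 9.18), in Het 1 and Het 2 (7.62 and 7.81) and in Homo 2 (7.47) but not in Homo 3, the library with the most calls. Farp1 was missing from WT 1, the deepest library, while 7 other libraries called it at 5.93 to 9.88 and Homo 3 at 4.89.

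Lists of genes that dividing cells use held many narrow regions. In what follows, the share of genes with a narrow region is set beside 22.5% of all protein-coding genes. No region of any kind lay at an end of 12413 of the 21631 protein-coding genes. The same held for 1 of 26 nucleolar, 4 of 47 replication and repair, 7 of 34 mitosis, 8 of 39 proteasome and 1 of 30 splicing genes. Having any region at an end thus enters each share, which is no trait of narrow regions alone. Nucleolar genes of ribosome making, known MYC targets, had a narrow region at 16 of 26 genes (61.5%). Their calls numbered 6, 1 and 16 in Homo 1 to Homo 3, 5, 4 and 0 in Het 1 to Het 3 and 15, 13, 9 and 11 in WT 1 to WT 4. Of all members these libraries called 32.4%, 10.8% and 88.8% in Homo, 53.3%, 41.0% and 18.9% in Het and 86.3%, 78.1%, 63.4% and 81.1% in WT, and the call counts of this and the following lists are to be read against those shares. Nolc1, a nucleolar phosphoprotein, and Nop56, of the box C/D complex that guides RNA methylation, were in 8 lists, with folds of 10.2 and 9.44 in Homo 3, 7.26 and 5.75 in Het 1 and 7.73 and 9.16 in WT 1. DNA replication and repair genes had one at 28 of 47 (59.6%), with 3 to 26 calls in Homo, 3 to 14 in Het and 20 to 28 in WT libraries. Gins2, of the replicative helicase, had a fold of 12.1 in Homo 3, 8.12 in Het 1 and 9.21 in WT 1. Mitosis and cell cycle genes had one at 17 of 34 (50%), proteasome subunits at 20 of 39 (51.3%) and splicing genes at 14 of 30 (46.7%). Mad2l1, of the spindle checkpoint, was called in no Homo library but Homo 3 (9.66), in all Het libraries (7.58 to 10.7) and in all WT libraries (8.26 to 8.91).

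Mitochondrial genes had lower shares. Oxidative phosphorylation subunits had a narrow region at 34 of 84 genes (40.5%) and mitochondrial ribosomal proteins at 27 of 78 (34.6%). No region of any kind lay at an end of 13 of these 84 and 10 of these 78 genes, and this enters the shares. Atp5g1, a subunit of the ATP synthase ring, had folds of 5.56 and 9.60 in Homo 1 and Homo 3, 8.94, 8.80 and 5.5 in Het libraries and 7.53 to 10.2 in WT libraries. Mrps14, of the small subunit of the mitochondrial ribosome, had 8.33 and 9.23 in Homo 2 and Homo 3, 6.25 to 8.33 in Het and 7.66 to 10.3 in WT libraries. Of the 27 mitochondrial ribosomal members, 6 were called in all WT and no Het library (Mrps36, Mrps15, Mrpl20, Mrpl1, Mrps35 and Mrps22), beside 307 of all 4961. The same pattern held 1 of 34 oxidative phosphorylation, 6 of 37 cilium and centriole and 10 of 144 Zfp members. Differences between lists were not tested. Genes of cilia and centrioles had one at 37 of 77 (48.1%), with 6 to 34 calls in Homo, 7 to 23 in Het and 31 to 34 in WT libraries. Zfp zinc finger genes had one at 141 of 394 (35.8%), with 20 to 124 calls in Homo, 23 to 65 in Het and 82 to 124 in WT libraries. No region of any kind lay at 10 of the 77 cilium and centriole genes and 168 of the 394 Zfp genes. In each of these lists Homo 2 and Het 3 were among the 3 libraries with the fewest calls, as they were over all members.

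Subunits of SWI/SNF itself had narrow regions at 13 of 25 genes (52.0%), with 5, 0 and 11 calls in Homo 1 to Homo 3, 8, 6 and 2 in Het 1 to Het 3 and 11, 11, 8 and 11 in WT 1 to WT 4. None was called in all WT and no Homo library or in all WT and no Het library, patterns that held 0.403% and 6.19% of all members, so a list of this size may hold none. Smarcc2, a scaffold subunit, was in every library but Homo 2, with folds of 7.01 and 6.0 in Homo, 4.38 to 6.05 in Het and 5.11 to 7.11 in WT libraries. Smarcc1, its paralog, had 5.05 and 8.37 in Homo 1 and Homo 3, 5.36 and 6.48 in Het 1 and Het 2 and 6.29 to 7.82 in WT libraries. The groups overlapped for both.

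Lists of liver genes differed in how many held a narrow region. Cytochrome P450 genes had one at 4 of 93 (4.30%), with no region of any kind at 84. Liver transcription factors had one at 3 of 25 (12%), with no region of any kind at 14. Hepatocyte plasma protein genes had a narrow region at 8 of 25 (32.0%), with 1, 0 and 7 calls in Homo 1 to Homo 3, 0 in each Het library and 5, 5, 0 and 4 in WT 1 to WT 4, where the Het libraries called 53.3%, 41.0% and 18.9% and WT 3 63.4% of all members. These members were called in a median of 2.5 lists at a median rank percentile of 19.5, against 6 and 42.5 over all members. Of the 558 members in 2 lists, Het 1 to Het 3 called 56, 26 and 13 and WT 3 called 88. The shares over all members are thus no like measure for this list. C3, the central complement protein, had a fold of 6.50 in Homo 3 and 5.58, 6.61 and 5.76 in WT 1, WT 2 and WT 4, and no call elsewhere. Nr5a2, a nuclear receptor of bile acid and cholesterol genes, had 8.19 in Homo 3 and 7.88 and 8.89 in WT 1 and WT 2. Gc, the vitamin D binding protein, named after its values were seen, had 7.88 in Homo 3 and 7.34 and 10.1 in WT 1 and WT 2. These 3 are absent from WT 3 as well as from all Het libraries. Nr0b2, a nuclear receptor without a DNA-binding domain, was not, with 5.45 and 8.23 in Homo 1 and Homo 3, 8.08 and 5.56 in Het 1 and Het 2 and 7.96, 6.72 and 4.76 in WT 1 to WT 3 for a region at the far end of the gene. The glucose and lipid list differed, with a narrow region at 14 of 29 (48.3%) and 3 to 15 calls in Homo, 4 to 12 in Het and 11 to 15 in WT libraries. Acadm, which oxidises medium-chain fatty acids, had folds of 6.67 and 12.5 in Homo 1 and Homo 3, 5.86 to 9.40 in Het and 6.49 to 11.2 in WT libraries.

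Of the 10 hepatocyte markers, 5 had a narrow region, Ttr and Alb among them, with 1, 0 and 4 calls in Homo 1 to Homo 3, 0 in each Het library and 3, 4, 0 and 2 in WT 1 to WT 4. These regions too were weak, in a median of 3 lists at a median rank percentile of 16.0. No endothelial, macrophage, stellate or lymphocyte marker had one (0 of 8, 0 of 8, 0 of 9 and 0 of 11). No region of any kind lay at an end of 8, 7, 9 and 11 of these genes, against 3 of the 10 hepatocyte markers. This absence is thus no trait of narrow regions alone. The erythroid marker Nfe2 (1 of 8) was called in Homo 3, WT 1 and WT 2, and the cholangiocyte marker Epcam (1 of 7) in WT 3 and WT 4. Ttr, Trf and Alb, which are among the hepatocyte markers, also belong to the plasma protein list, so the calls of the 2 lists are not independent. The part of cell content in either was not tested.

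Stress and tumour genes gave further examples. Immediate early and stress genes had a narrow region at 11 of 25 (44.0%). Gadd45a, a growth arrest gene, had folds of 7.25 and 9.56 in Homo 1 and Homo 3, 7.89, 5.86 and 5.61 in Het and 7.20 to 8.39 in WT libraries, and Atf3, a stress factor, had 7.92 in Homo 3, 5.24 to 6.25 in Het and 5.35 to 8.58 in WT libraries. Genes of the p53 pathway and apoptosis had one at 9 of 26 (34.6%), with 1, 0 and 9 calls in Homo 1 to Homo 3, 4, 1 and 0 in Het 1 to Het 3 and 7, 5, 7 and 7 in WT 1 to WT 4. Of these, Casp9, the caspase of the apoptosome, and Diablo were called in all WT and no Het library, 2 of 9 genes beside 6.19% of all members, in a list too short to set apart from that share. Genes of migration and metastasis had one at 6 of 30 (20%), below the share of all genes, and 15 had no region of any kind at an end. Snai1, a repressor of E-cadherin, had folds of 5.56 and 9.42 in Homo 2 and Homo 3, 6.48 and 6.57 in Het 1 and Het 2 and 6.57 to 8.44 in WT libraries, and Zeb1 was called in Homo 3, Het 1, WT 1, WT 2 and WT 4.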

How the data were processed

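ATAC-seq peak lists of 10 mouse liver tumour libraries were used, grouped by the genotype in the sample titles (Homo, Het and WT). The submitters' processing notes name Bowtie2, MACS2, deepTools and the build mm10, and there is 1 peak list per library. Versions, calling thresholds, duplicate handling, any offset of the cut sites and read totals are not given in the labels or headers. The deposited lists hold a score, the fold (a ratio of tags plus 1 over local background plus 1 at the summit), and −log10 p and −log10 q values per peak, all of them the authors' own, used to rank, describe and thin peaks within a list.

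A whole number of tags and a background value were solved from the deposited fold and −log10 p (Poisson upper tail, tolerance 0.001) for at least 99.88% of rows in each list, and the lowest background value found in 10 or more rows served as depth, which was not checked against read totals. Rows were merged within a list, and the union over lists was taken on the 19 autosomes and X. A library calls a region if a merged row overlaps it by 1 bp. Gene ends came from RefSeq annotation of GRCm38.p6 (the same chromosome coordinates as mm10), and strand and start from RefSeq promoter windows where a gene has one. No genome was used.

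Values per library were compared by two-sided exact permutation of group labels, with Benjamini-Hochberg adjustment over 21 tests, in Python 3.11.15 with scipy 1.17.1. Recovery of tags was checked on simulated rows, and merging and overlap on a made-up list. Alternatives were each library left out, lists thinned to equal depth (1 seeded draw), lists cut to 1748 rows, −log10 q of at least 3, a midpoint overlap, 500 bp and 600 bp limits, 3 to 8 lists and a block by replicate number. The members, the 24 gene and marker lists and the 14 motifs were chosen with earlier results of these data known, so no pattern here is independent support. Named members follow a rule: for each contrast and direction up to 6 members by rank, the 4 highest and 3 lowest in 9 lists, those next to the length limit, and up to 3 per gene list by number of lists. Exceptions are said to be chosen after their values were seen.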

Additional observations from a re-analysis of the deposited data

Results flagged for a closer look

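Dixon's test was applied to 31 groups of 4 WT values and marked 2, and chance marks about 1 in 20 groups. SWI/SNF subunit members were called 8 times in WT 3 and 11 times in each of the other WT libraries. Members at genes of the p53 pathway and apoptosis were called 5 times in WT 2 and 7 times in each of the other WT libraries. In both cases the other 3 values were equal, so that any gap passes this test. WT 3 has the lowest depth of the WT libraries (0.985 background tags per 200 bp) and WT 2 the next lowest (1.131). The part of depth in these counts was not tested.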

How the results depend on the processing

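Of the 503 values of the tests, the trend and the call patterns, main values included, 369 kept their direction and side of the threshold under an alternative, 48 turned, 55 counts moved by more than 1.5 times and 1 passed the threshold. No pairwise test passed an adjusted threshold of 0.05 under any setting, so a kept side says little. Of the 30 named calls under 4 settings, none turned, 64 were complete as before and 56 were reduced, 23 of them at equal depth and 27 in lists of equal number.

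With lists thinned to equal depth, Homo against Het was -195 members called, the median fold differed by 0.310 for Homo against WT, 0.358 for Het against WT and -0.0489 for Homo against Het, and the share at gene starts by -0.00107 points for Het against WT and 0.0953 for Homo against Het. Members called were then 7 in Homo and not WT, 79 in WT and not Homo, 9 in Het and not WT, 49 in WT and not Het, 39 in Het and not Homo and 1 in Homo and Het and not WT.

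With lists of equal number, Homo against Het was -9.33 members, narrow minus broad 1.45 points for Het against WT, the share at starts -0.213 points for Het against WT and 0.338 for Homo against Het, and GC content 0 points for Het against WT and 0.111 for Homo against Het. The patterns held 2 members in Homo and not WT, 7 in WT and not Homo, 5 in Het and not WT, 14 in WT and not Het, 6 in Homo and not Het, 11 in Het and not Homo and 2 in WT and not Homo or Het.

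With members under 600 bp, the share of the list was 0.999 points and the median fold -0.0142 for Homo against Het, the share at starts -0.109 for Homo against WT and -0.107 for Het against WT, and GC -0.0833 for Homo against WT, with 10 members in Homo and not Het and 3 in Het and not Homo. With the midpoint rule, the share at starts was -0.00868 for Homo against WT, -0.0138 for Het against WT and 0.00508 for Homo against Het, GC was -0.306 for Homo against WT, and 2 members were in Homo and not WT. The share at starts was -0.113 for Homo against WT within 500 bp, and in 3 to 8 lists -0.0385 for Homo against WT and -0.0252 for Het against WT. The cause of these turns was not tested, and most are far below the spread between libraries.

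Leaving out 1 library at a time, Homo against Het ranged over -801 to 1134 members called, -5.74 to 1.95 points for the share of the list, -0.276 to 0.265 for the median fold, -14.8 to 71.2 bp for width and -0.190 to 0.0435 points for the share at starts. Homo against WT ranged over -0.481 to 0.0314 for the median fold, -0.108 to 0.139 for the share at starts and -0.167 to 0.333 for GC, and Het against WT over -0.407 to 0.0376 for the median fold. The trend ranged over -1450 to -599 members per allele. The patterns ranged over 1 to 15 members in Homo and not WT, 23 to 1198 in WT and not Homo, 0 to 6 in Het and not WT, 338 to 755 in WT and not Het, 21 to 188 in Homo and not Het, 5 to 161 in Het and not Homo, 0 to 1 in Homo and Het and not WT and 11 to 217 in WT and not Homo or Het.

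Chosen after seeing the data, leaving out Homo 1, Homo 2 and Het 3 together gave 573 more members called in Homo than WT, differences of 0.539 in median fold, 44.8 bp in width, -0.0901 points in the share at starts and -0.333 in GC for Homo against WT, 0.0376 in median fold for Het against WT and 1.35 points in the share of the list for Homo against Het, and 38 members in Homo and not WT, 45 in WT and not Homo, 6 in Het and not WT, 1417 in Homo and not Het, 33 in Het and not Homo, 4 in Homo and Het and not WT and 17 in WT and not Homo or Het. On the log2 odds scale narrow against broad was 1.24 for Het against WT.

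Replicate numbers 1 to 3 recur in each group, but same-numbered libraries did not deviate together (correlations of -0.108 to 0.0247). With the replicate number as a block, Het against WT was -1896 members called (exact p = 0.25, the smallest such a block allows), and the block changed no call. Depth limits what is missing: a region without a call is below the authors' threshold in that library, which does not show closed chromatin.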
